A study of Lotus japonicus with 14 samples.

Results

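Root nodules of wild type Lotus japonicus formed with the rhizobial strain TONO were compared with nodules formed with the strain MAFF303099, day by day. The comparison rests on 6 of the 14 libraries of the series, 3 per strain, chosen by their labels: wild type plants (accession MG20, Miyakojima), inoculated with either strain of Mesorhizobium loti, with tissue taken at 5, 7 and 10 days after inoculation (dai). Plants grew in vermiculite on a medium without nitrogen, and nodule primordia or young nodules were cut from the roots. Each strain and day was 1 library, so the strain cannot be told apart from the library that stands for it, and single values come without a replicate error. The 6 nodule libraries of apn1, a mutant labelled Fix-, entered the fits to give an estimate of the spread, served as the nearest comparison, and together with the uninoculated apn1 root supplied gene lists. The uninoculated root of wild type is given as a reference level.

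Legumes form nodules after rhizobial Nod factors are perceived by receptor kinases of the root. Cells of the root cortex then divide to make a primordium, bacteria enter through infection threads, and the bacteria released into nodule cells become bacteroids that fix nitrogen. Leghemoglobins, which buffer oxygen around the bacteroids, are among the most abundant plant transcripts of a mature nodule. Rhizobial strains differ in surface polysaccharides and secreted effector proteins, and the same plant can respond differently to each strain. APN1 is a nodule-induced aspartic peptidase, and loss of it is known to restrict nitrogen fixation with particular strains of M. loti. The gene models in the tables carry identifiers only, and the files do not pair them with names, so no gene is given a function here.

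The wild type nodule libraries held 54696966, 55377555 and 37261815 counts with MAFF303099 and 56865631, 48180653 and 35585651 counts with TONO at 5, 7 and 10 dai. The strains thus differed little in depth on a given day, while the libraries of 10 dai were the shallowest with both. A total of 32549 of 38476 gene models passed a mean count of at least 10 and were tested. The daily difference is the log2 ratio of TONO to MAFF303099 of counts scaled to library size (CPM), with TMM factors and 2 as the prior count. In these bulk samples, fewer cells of a type and less RNA per cell cannot be told apart.

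The strains were closest at 7 dai and farthest apart at 10 dai. At 5 dai, 3058 gene models were 2-fold apart or more (9.4%), 1175 of them higher with TONO (3.61%) and 1883 lower (5.79%). At 7 dai 2585 were so (7.94%), with 1022 higher (3.14%) and 1563 lower (4.8%). At 10 dai the number was 4011 (12.3%), with 1706 higher (5.24%) and 2305 lower (7.08%). Differences of 4-fold or more were found at 403 gene models at 5 dai (1.24%), 351 at 7 dai (1.08%) and 673 at 10 dai (2.07%). More gene models were lower than higher on every day, and with scaling by totals alone the split at 10 dai was 970 higher and 3656 lower. In apn1 the same strains were at least 2-fold apart at 1608 gene models at 5 dai (4.94%), 1533 at 7 dai (4.71%) and 4653 at 10 dai (14.3%). Wild type thus had more gene models apart than apn1 at 5 and 7 dai and fewer at 10 dai. As a scale for these counts, wild type and apn1 libraries of the same strain and day were 2-fold apart at 1302 and 1704 gene models at 5 dai, with MAFF303099 and TONO respectively. At 10 dai these numbers were 3602 and 6676.

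**Figure D1:**
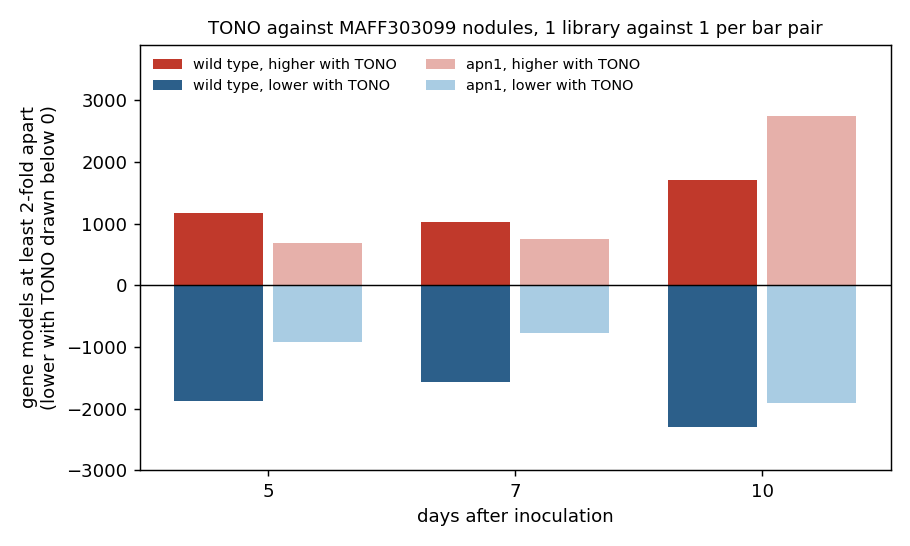
Number of gene models at least 2-fold higher (above 0) or lower (below 0) with TONO than with MAFF303099 at each day after inoculation, in wild type (dark bars) and apn1 (light bars). In wild type the bars are shortest at 7 dai (1022 and 1563) and longest at 10 dai (1706 and 2305).

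Every TONO library was nearest to the MAFF303099 library of its own day. The TONO library of 7 dai was 2-fold apart from MAFF303099 at 2585 gene models for 7 dai, at 4197 for 5 dai and at 7733 for 10 dai. The TONO library of 5 dai was 2-fold apart at 3058, 6893 and 9516 gene models from MAFF303099 at 5, 7 and 10 dai. The reverse pairings were not symmetrical. TONO at 7 dai against MAFF303099 at 5 dai gave 4197 gene models, whereas TONO at 5 dai against MAFF303099 at 7 dai gave 6893. For 7 and 10 dai the order was the other way. TONO at 10 dai differed from MAFF303099 at 7 dai at 8920 gene models and TONO at 7 dai from MAFF303099 at 10 dai at 7733. Within a strain the TONO libraries spanned the wider range. Between 5 and 10 dai 10588 gene models differed by at least 2-fold with TONO and 8872 with MAFF303099, and between 5 and 7 dai the numbers were 5758 and 4220.

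**Figure D2:**
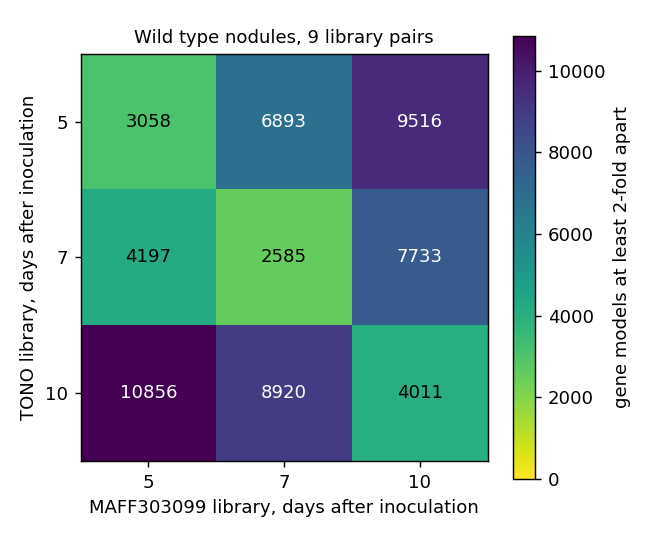
Number of gene models at least 2-fold apart for each pair of a wild type TONO library (rows) and a wild type MAFF303099 library (columns), by days after inoculation. The lowest value of each row lies on the diagonal (3058, 2585 and 4011), and TONO at 5 dai is farther from MAFF303099 at 7 dai (6893) than TONO at 7 dai is from MAFF303099 at 5 dai (4197).

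Genes that nodules express above roots were lower with TONO at 5 dai, and the difference was small or of the other sign later. The gene lists used here were made from apn1 libraries alone, from the uninoculated apn1 root and the apn1 nodules with MAFF303099, so no wild type library chose their members. Nodule raised genes were at least 4-fold above the apn1 root on all 3 days, and 703 of the 713 gene models that met this rule were tested. In wild type their median level was −0.42 log2 CPM in the root. It was 3.78, 4.72 and 4.32 log2 CPM with MAFF303099 at 5, 7 and 10 dai, and 2.98, 4.56 and 4.43 with TONO. The TONO library was thus lower at 5 dai, and at 10 dai it was slightly higher with TMM factors and not with scaling by totals alone. At 5 dai the median daily difference of these genes was −0.65, with 244 of 703 (34.7%, against 5.79%) at least 2-fold lower and 20 higher (2.84%, against 3.61%), while the median of all tested gene models was −0.01. At 7 dai the median difference was −0.13, with 44 at least 2-fold lower (6.26%) and 18 higher (2.56%), near the 4.8% and 3.14% of all tested gene models. At 10 dai it was 0.21 (−0.05 with totals alone), with 55 lower (7.82%) and 72 higher (10.2%), against 7.08% and 5.24%. Of the 244 genes that were 2-fold lower with TONO at 5 dai, 22 were also 2-fold lower at 7 dai and 17 at 10 dai, shares of 9.02% and 6.97% against 4.8% and 7.08% of all tested gene models. At 10 dai 156 of the 244 had a value above that with MAFF303099, where 62% of the whole list did, so at that day the 244 were near the other members and the background.

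Genes that rise late in nodule development showed the same order of signs. Late rising genes had in apn1 with MAFF303099 a level at 10 dai of 4 times that at 5 dai or more, and 1286 of 1516 were tested. Of these, 147 were also nodule raised genes. Their median level in wild type was 1.37, 2.87 and 4.2 log2 CPM with MAFF303099 at 5, 7 and 10 dai and 1.15, 2.62 and 4.35 with TONO. The median daily differences were −0.17, −0.19 and 0.18, the last of which was −0.08 with totals alone. At 5 dai 21.5% of them were at least 2-fold lower with TONO and 12% higher, against 5.79% and 3.61% of all tested gene models, so both directions were above the background. At 10 dai 5.52% were lower and 8.94% higher, against 7.08% and 5.24%.

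Late falling genes had the opposite change, a 4-fold drop or more from 5 to 10 dai, and 1853 of 2252 were tested. Their levels were 2.30, 1.44 and 0.05 log2 CPM with MAFF303099 and 2.37, 1.60 and −0.17 with TONO. The median difference was 0.03 at 5 dai, near that of all gene models, and 0.17 and −0.24 at 7 and 10 dai, where late rising genes had the opposite signs with TMM factors. At 10 dai 20.8% of late falling genes were at least 2-fold lower with TONO and 9.66% higher, against 7.08% and 5.24% of all tested gene models. These genes were low at 10 dai, and of all gene models in the lowest class of mean count (10 to under 50) 22.2% were lower and 13.3% higher on that day. That class is set by a mean over libraries, not by the level at 10 dai. When the filter was raised to a mean of 50 counts, the late falling list held 1328 gene models. Its median difference at 10 dai was then −0.22, close to the −0.24 of the full list. Early transient genes are by rule late falling genes that at 5 dai were also at least 4-fold above the apn1 root, and 531 of 623 were tested. Their median difference was −0.05, 0.26 and −0.36 at 5, 7 and 10 dai. The 10 dai value was the lowest median of the 5 lists on that day, with 23.7% of the genes at least 2-fold lower with TONO. Under the filter at 50 counts the early transient list held 441 gene models, with a median difference of −0.35 at 10 dai.

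Genes lower in nodules than in roots were somewhat higher with TONO at 5 and 7 dai. Nodule lowered genes, at least 4-fold below the apn1 root on all 3 days, numbered 646 tested of 853. Their median level was 3.92 log2 CPM in the wild type root, 1.14, 0.75 and 0.78 with MAFF303099 and 1.51, 0.90 and 0.97 with TONO. The median differences were 0.24, 0.14 and 0.23, the last of which was −0.01 with totals alone. How much root tissue was cut with each nodule is not known, and the part of these root transcripts in the other differences was not tested. Scaling by totals alone shifted the median of all gene models from −0.01 to −0.27 at 10 dai. Relative to that median, nodule raised, nodule lowered and late rising genes at 10 dai were at 0.22, 0.26 and 0.2 with totals and at 0.21, 0.24 and 0.19 with TMM factors. A common scaling factor all but cancels in such relative values, so they do not test the scaling.

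**Figure D3:**
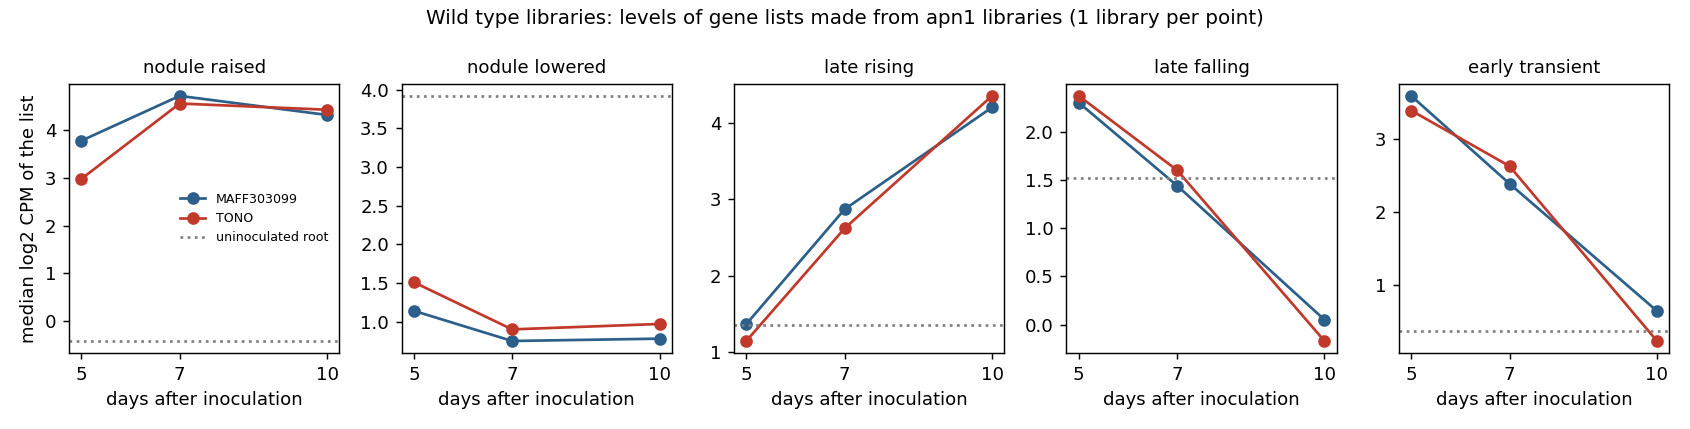
Median log2 CPM of each gene list (panels) against days after inoculation in wild type nodules with MAFF303099 (blue) and TONO (red), 1 library per point, with the uninoculated wild type root as a dotted line. Nodule raised genes start lower with TONO at 5 dai (2.98 against 3.78) and late falling genes end lower at 10 dai (−0.17 against 0.05).

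Of the gene models with the largest differences at 5 dai, named by a rule on size, the pair lower with TONO was high in nodules at 7 and 10 dai with both strains. chr5.CM0299.580.r2.d (on chromosome 5 by its identifier) had 11, 716 and 512 CPM with MAFF303099 at 5, 7 and 10 dai and 0.193, 550 and 730 CPM with TONO, and 0 counts in the wild type root. Its log2 difference was −5.46 at 5 dai, from 601 and 11 counts, against −0.29 and 0.78 on the later days. LjT36K06.70.r2.d had 35.5, 406 and 398 CPM with MAFF303099 and 1.27, 173 and 225 CPM with TONO. It was lower with TONO on all 3 days, by −4.68, −1.14 and −0.56 on the log2 scale. In apn1, whose libraries did not choose them, the 2 gene models were also lower with TONO at 5 dai, by −2.46 and −2.05. In the other direction, chr2.CM0272.560.r2.d had 8.61, 6.14 and 151 CPM with MAFF303099 and 80.4, 6.02 and 126 CPM with TONO. It differed at 5 dai by 3.3 and by at most 0.06 on the later days, and by 2.14 at 5 dai in apn1. LjSGA_037981.1 had 1.30 and 0.632 CPM with MAFF303099 and 16.2 and 0.415 CPM with TONO at 5 and 7 dai, and 0 counts in both libraries of 10 dai. Its root level was 7.88 CPM in wild type and 68.1 CPM in apn1, and its difference at 5 dai was 3.68 in wild type and 3.32 in apn1.

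At 7 dai the pair lower with TONO had been near 0 at 5 dai with both strains. chr1.LjT10G23.80.r2.m had 0.384, 52.8 and 26.5 CPM with MAFF303099 and 0.229, 10.7 and 34.2 CPM with TONO, a log2 difference of −2.21 at 7 dai and 0.63 at 10 dai. chr5.CM0344.480.r2.d had 0.183, 79.9 and 481 CPM with MAFF303099 and 0.176, 19.6 and 642 CPM with TONO, with −1.93 at 7 dai and 0.68 at 10 dai. In apn1 these differed by −2.19 and −1.15 at 7 dai. Highest with TONO at 7 dai beside chr4.CM0126.1710.r2.a, described below, was chr6.CM0066.630.r2.m. It had 411 CPM in the root, 58.8, 15.7 and 104 CPM with MAFF303099 and 100, 100 and 208 CPM with TONO. It was higher with TONO on all 3 days, by 0.86, 2.76 and 1.26, and in apn1 by 1.38, 1.72 and 0.32.

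At 10 dai the pair lower with TONO was under 1 CPM with TONO, with smaller differences in apn1. LjSGA_010022.2 had 4.42, 23.5 and 15.3 CPM with MAFF303099 and 6.77, 10.3 and 0.646 CPM with TONO, a difference of −4.24 at 10 dai in wild type and −0.87 in apn1. chr4.LjB15O07.70.r2.m had 3.75, 5.6 and 14.5 CPM with MAFF303099 and 5.06, 2.99 and 0.787 CPM with TONO, a difference of −3.89 at 10 dai in wild type and −0.36 in apn1. The apn1 libraries of 10 dai were low with both strains, at 1.82 and 1.37 CPM with MAFF303099 and 1.09 and 1.18 CPM with TONO. The single wild type MAFF303099 library thus stood apart from the other libraries of that day. On the higher side, chr3.CM0426.10.r2.a had 31.6, 35.7 and 10.4 CPM with MAFF303099 and 25.7, 66.1 and 74.8 CPM with TONO. Its difference at 10 dai was 3.11 in wild type and 1.01 in apn1. chr2.CM0323.550.r2.d had 1.85, 60 and 16.8 CPM with MAFF303099 and 0.598, 49.3 and 91.6 CPM with TONO. Its difference turned from −1.48 at 5 dai to 2.71 at 10 dai in wild type, against 0.10 and −0.31 in apn1. These day-wise differences have 1 library on each side and no test.

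The strain difference agreed in part over days. The 3 daily differences share no library. Described across the 32549 gene models, which share the depth and composition of their libraries, the Pearson correlation of these differences was 0.222 between 5 and 7 dai, 0.201 between 7 and 10 dai and 0.118 between 5 and 10 dai. Of the gene models 2-fold higher at 5 dai, 16.9% were also 2-fold higher at 7 dai and 11% were 2-fold lower, against 3.14% and 4.8% of all tested. Of those 2-fold lower at 5 dai, 15% were also lower at 7 dai and 4.41% were higher, against 4.8% and 3.14%. In total 7505 gene models (23.1%) were 2-fold apart on at least 1 day, 5652 of them on exactly 1 day (17.4%), and 674 passed 2-fold in opposite directions on different days (2.07%). On all 3 days 86 gene models passed 2-fold upward (0.264%) and 66 downward (0.203%). In apn1, 25 (0.0768%) and 26 (0.0799%) gene models were so.

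The 86 higher and 66 lower gene models were unlike each other in level. The higher ones had a median count of 926.2 over the wild type nodule libraries, against 352.8 for all tested gene models, and 13 of 86 (15.1%) were under 1 CPM in both roots. The lower ones had a median count of 30.8, and 42 of 66 (63.6%) were under 1 CPM in both roots, against 13.5% of all tested. Of the 66, 42 were in the lowest class of mean count (10 to under 50) and 4 in the highest (500 or more). With a mean count of at least 50 as the filter, 24 gene models were lower on all 3 days, and with a prior count of 8 the number was also 24. Among gene models in the highest class of mean count, the balance differed by day. At 5 dai 218 were 2-fold higher and 454 lower with TONO, at 7 dai 193 and 84, and at 10 dai 495 and 206. In apn1, 16 of the 86 higher gene models were also 2-fold higher with TONO at 5 dai (18.6%, against 2.11% of all tested), 11 at 7 dai (12.8%, against 2.32%) and 17 at 10 dai (19.8%, against 8.44%). Of the 66 lower ones 10, 13 and 7 were 2-fold lower in apn1 (15.2%, 19.7% and 10.6%, against 2.83%, 2.39% and 5.85%), while 5, 7 and 18 of the 66 were 2-fold higher there, against 2.11%, 2.32% and 8.44% of all tested. At 10 dai the opposite direction was thus the commoner. The same held in apn1 for all gene models in the lowest class of mean count, to which 42 of the 66 belong. In that class 21.3% were 2-fold higher and 13.9% lower with TONO in apn1 at 10 dai. At 5 and 7 dai 9.23% and 10.6% of that class were 2-fold lower there. Of the 86, 5, 6 and 4 were 2-fold lower in apn1.

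A fit over the days then asked which gene models differed between the strains in wild type, with day as a block and the spread estimated over all 12 nodule libraries. By edgeR's quasi-likelihood test 85 gene models passed (0.261%), 66 higher (0.203%) and 19 lower (0.0584%) with TONO, and 50 of them by at least 2-fold (0.154%). An unadjusted p under 0.05 was found for 5034 gene models (15.5%). All 85 had the same sign on 3 of 3 days, which a call over these same days favors by itself. When any 1 of the 6 wild type libraries was left out, 0 passed. Without all libraries of 10 dai 169 passed, and without those of 5 dai or those of 7 dai 0 passed. None passed in the 6 wild type libraries alone, which leave 2 residual degrees of freedom, or without day as a block. Of the apn1 libraries, 0 passed without MAFF303099 at 5 dai and 544 without TONO at 10 dai, and DESeq2 called 1359, among them all 85 with the same sign. The higher 66 had a median count of 1487.5, and 1 of them was under 1 CPM in both roots.

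Ranked by their smallest daily difference, 2 gene models on either side were named. chr4.CM0126.1710.r2.a (chromosome 4) had 8.94, 6.74 and 13 CPM with MAFF303099, 46.8, 43.6 and 40.7 CPM with TONO and 10.8 CPM in the wild type root. In wild type the MAFF303099 nodules thus lay near the root level and the TONO nodules above it. The fitted log2 difference was 2.35 (SE 0.28, edgeR adjusted p = 0.0252). chr4.LjT13G24.170.r2.a (chromosome 4) had 2060, 1180 and 2000 CPM with MAFF303099, 7750, 5170 and 6190 CPM with TONO and 1250 CPM in the root (log2 difference 2.02, SE 0.31, edgeR adjusted p = 0.038). In apn1 chr4.CM0126.1710.r2.a had 24.4, 29.5 and 16.7 CPM with MAFF303099 and 14.2, 17.4 and 23.1 CPM with TONO, against 8.81 CPM in the root. There chr4.LjT13G24.170.r2.a had 5350, 5260 and 2520 CPM with MAFF303099 and 2830, 2640 and 3190 CPM with TONO, against 1010 CPM in the root. In apn1 both gene models were thus lower with TONO at 5 and 7 dai, by −0.80 and −0.79 for the former and −0.94 and −1.03 for the latter. Both were higher at 10 dai, by 0.32 and 0.18. Their genotype by strain interactions did not pass (edgeR adjusted p = 0.0966 and 0.183).

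Lower with TONO was LjSGA_012776.1, at 2.47, 2.91 and 0.939 CPM with MAFF303099 and 0.844, 0.706 and 0.281 CPM with TONO (log2 difference −1.65, SE 0.25, edgeR adjusted p = 0.038). chr1.CM0316.1120.r2.m (chromosome 1) had 25.8, 23.7 and 10.1 CPM with MAFF303099 and 8.9, 6.29 and 3.85 CPM with TONO (log2 difference −1.46, SE 0.22, edgeR adjusted p = 0.038). Both were lowest at 10 dai with either strain, and the TONO value was below that of MAFF303099 on each day. The root held 0.383 and 5.45 CPM of them. Their interaction terms did not pass (edgeR adjusted p = 0.501 and 0.32). Among 23 alternatives the 4 gene models missed the threshold in 12, 14, 17 and 14, in the order given, and none changed direction. They were named for large differences of the same sign on all days, so the direction could hardly turn.

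**Figure D4:**
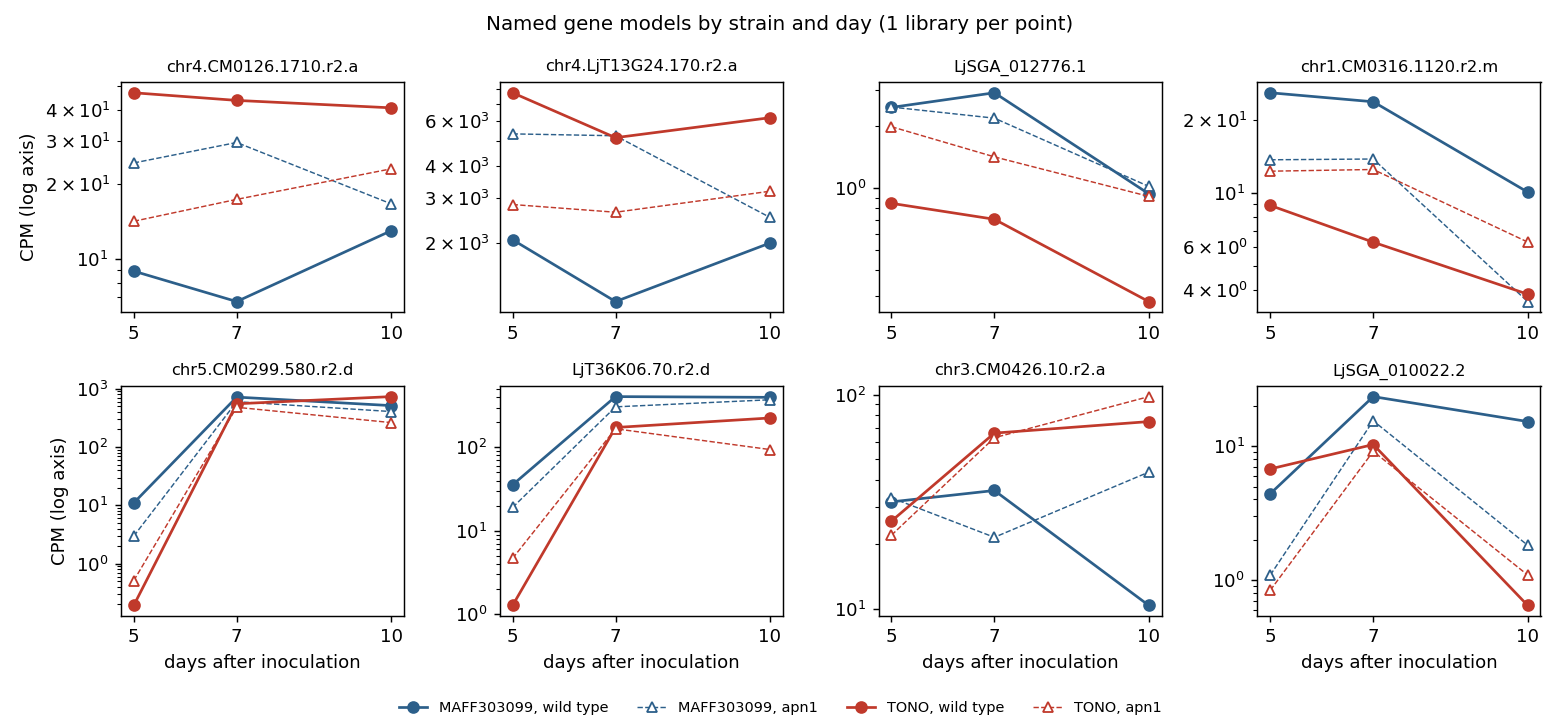
CPM (log axis) of 8 named gene models against days after inoculation, 1 library per point, with MAFF303099 in blue and TONO in red, wild type as filled circles and apn1 as open triangles. The upper row holds the 4 gene models called over the days, and the first 2 panels of the lower row show the low TONO values at 5 dai (0.193 and 1.27 CPM).

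By the chromosome in the identifiers, chromosome 4 held 20 of the 86 gene models higher with TONO on all days (23.3%), against 9.75% of all tested gene models. The contig chr4.LjT13G24 alone held 7 of the 86 among its 17 tested gene models. This contig was singled out after its values were seen. On each of the 3 days the same number, 7 of 17, was 2-fold higher with TONO and none was 2-fold lower, with median differences of 0.75, 0.63 and 0.83. Together its gene models took 1.47%, 0.781% and 1.01% of all counts with MAFF303099 and 3.56%, 2.35% and 2.58% with TONO, against 0.684% in the root. In apn1 they took 2.83%, 2.27% and 1.17% with MAFF303099 and 2.26%, 1.83% and 2.11% with TONO. The apn1 values at 5 and 7 dai lay between those of the wild type strains, and the order of strains was reversed on both days. Whether gene models of this contig are alike in sequence and share reads was not tested. The way multiply aligned reads were counted is not given in the sources used here.

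The strain difference on a single day, averaged over both genotypes, was tested with 2 libraries per strain, 1 of each genotype. This is a test neither of wild type alone nor of each genotype by itself. At 5 dai 8 gene models passed with edgeR, 2 higher (0.00614%) and 6 lower (0.0184%) with TONO, and 2176 had an unadjusted p under 0.05 (6.69%). The call named here with the lowest fitted value, chosen after its values were seen, is chr1.CM0163.530.r2.d. It had 1617 counts with MAFF303099 and 97 with TONO in wild type, and 952 and 134 in apn1 (log2 difference −3.56, SE 0.39, edgeR adjusted p = 0.0478). At 10 dai it was among the abundant gene models with either strain, at 162423 and 190127 counts in wild type. The 2 gene models higher with TONO at 5 dai were chr4.CM0247.130.r2.m, at 1712 and 6019 counts in wild type and 1600 and 6787 in apn1, and chr5.CM0299.370.r2.a, at 426 and 1912 counts in wild type and 378 and 1296 in apn1. Their log2 differences were 1.86 (SE 0.22) and 1.89 (SE 0.22), each with an edgeR adjusted p of 0.0478. The single uninoculated roots of wild type and apn1 were far apart, at 1570 and 18609 counts of the former and 1188 and 3431 of the latter.

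At 7 dai 0 of 32549 gene models passed with edgeR, 1741 had an unadjusted p under 0.05 (5.35%), and 74 passed with DESeq2 and 0 with limma. At 10 dai 1 gene model was higher (0.00307%) and 1 lower (0.00307%), with 3441 at an unadjusted p under 0.05 (10.6%). LjSGA_104699.1 had 225 and 1137 counts with MAFF303099 and TONO in wild type and 161 and 950 in apn1 (log2 difference 2.56, SE 0.22, edgeR adjusted p = 0.00844). LjSGA_059392.1 had 2057 and 406 counts in wild type and 2131 and 557 in apn1 (log2 difference −2.03, SE 0.14, edgeR adjusted p = 0.00327). Leaving out 1 of the 12 libraries gave 0 to 432 calls at 5 dai and 0 to 2341 at 10 dai, and the high values came without a TONO library of 10 dai, 432 at 5 dai without that of apn1 and 2341 at 10 dai without that of wild type.

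The change of the strain difference with age, 10 dai against 5 dai over both genotypes, passed for 2 gene models, with 2992 at an unadjusted p under 0.05 (9.19%). chr4.CM0680.140.r2.m had 5.12, 6.52 and 7.38 CPM with MAFF303099 and 0.862, 14.5 and 24.6 CPM with TONO in wild type. The daily difference moved from −2.43 to 2, and in apn1 from −3.17 to 1.86 (contrast 4.81, SE 0.37, edgeR adjusted p = 0.00585, 0.00307% positive). In wild type its highest and lowest levels thus both occurred with TONO. The uninoculated roots of wild type and apn1 held 9.41 and 0.693 CPM of it. LjSGA_059392.1 had 41.7, 10.9 and 55.2 CPM with MAFF303099 and 48.3, 10.7 and 11.4 CPM with TONO, against 154 CPM in the root (contrast −2.42, SE 0.20, edgeR adjusted p = 0.00585, 0.00307% negative). Its levels with the 2 strains were nearly equal at 7 dai, and at 10 dai the value with MAFF303099 was again high in both genotypes. Among 17 alternatives these gene models missed the threshold in 3 and 4, and neither changed direction. They were named for the same sign in both genotypes, so the direction could hardly turn.

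Set against apn1, whose libraries are separate, the strain differences of the genotypes were most alike at 5 dai and least at 10 dai. Across 32549 gene models the Pearson correlation of the daily differences in wild type and apn1 was 0.29 at 5 dai, 0.198 at 7 dai and −0.007 at 10 dai. At 5 dai 217 gene models were 2-fold higher and 342 2-fold lower with TONO in both genotypes, and 102 went in opposite directions. The 217 are 18.5% of the gene models higher in wild type, against 2.11% of all tested gene models higher in apn1. The 342 are 18.2% of the gene models lower in wild type and 37.1% of those lower in apn1, against 2.83% of all tested gene models lower in apn1. At 7 dai 149 were higher and 205 lower in both, with 145 opposite. The 149 and 205 are 14.6% and 13.1% of those higher and lower in wild type. Of all tested gene models 2.32% were higher and 2.39% lower in apn1 on that day. At 10 dai 350 were higher and 233 lower in both, and 606 were opposite. How many opposite gene models the shares of each day would give by themselves was not worked out. The 350 are 20.5% of the gene models higher in wild type, against 8.44% of all tested gene models higher in apn1, and the 233 are 10.1% of those lower, against 5.85%. The genotype by strain interaction over days, the test of whether the strain effect differed between genotypes, passed for 0 gene models with edgeR. Of all tested, 2691 had an unadjusted p under 0.05 (8.27%), and 194 passed with DESeq2 and 2 with limma.

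**Figure D5:**
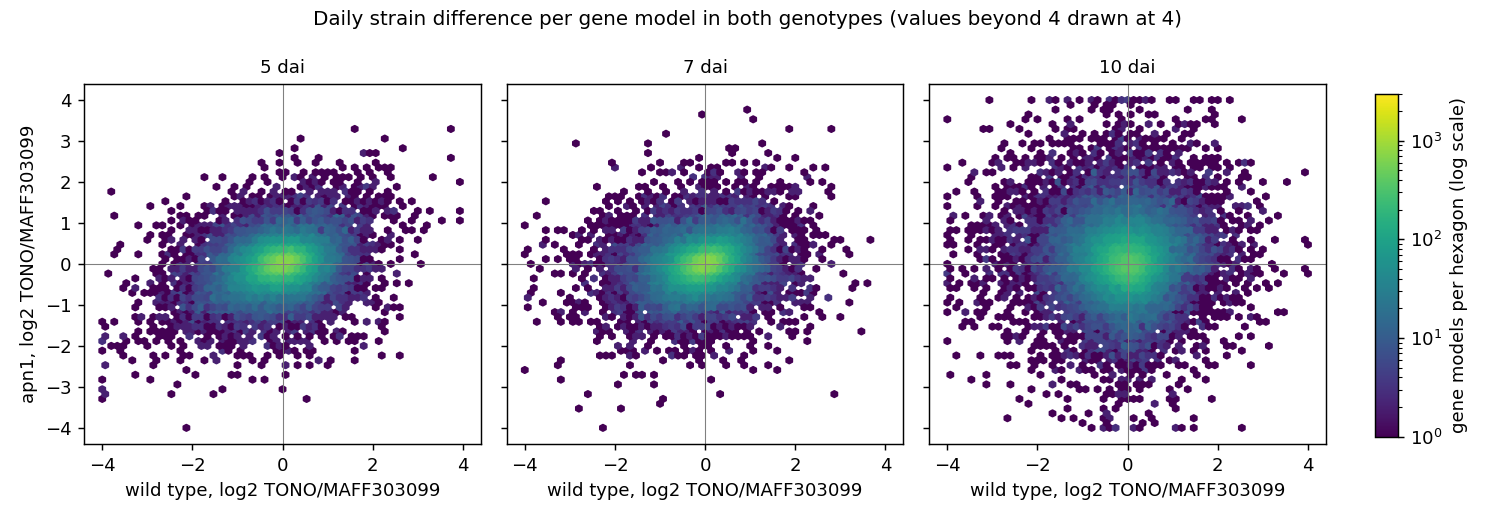
Daily log2 difference between TONO and MAFF303099 for each of 32549 gene models in wild type (horizontal) and apn1 (vertical) at 5, 7 and 10 days after inoculation, with color giving the number of gene models per hexagon on a log scale and values beyond 4 drawn at 4. The cloud is tilted at 5 dai (correlation 0.29) and has no tilt at 10 dai (−0.007).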

How the data were processed

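RNA was extracted from excised nodules, ribosomal RNA was depleted, and libraries were made with a ScriptSeq kit, per the labels' protocols. The authors deposited 12 tables of original read counts per gene model, per the file headers, each with 1 nodule library and its root. The 24 normalized columns were not used. Bowtie2 2.0.2 and DESeq appear in the submitters' processing notes. The genome build, annotation, counting tool and strand setting were not given in the sources used here. None of the 38476 identifiers matched the gene table supplied (0 matches, assembly LjGifu_v1.2), so no sequence is shown.

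Groups were taken from sample titles, which spell apn1 as anp1. Counts were tested with edgeR 4.0.16 (quasi-likelihood, TMM, two-sided, Benjamini-Hochberg adjusted p under 0.05, R 4.3.3). Over days, 4 genotype-strain combinations and 3 days left 6 residual degrees of freedom. Per day, 6 strain-day combinations and genotype left 5. With no replicate libraries, p-values measure what these additive terms leave over. SE is the fold change over the square root of F. The models were tested on simulated data. Of simulated 2-fold changes, 26% were recovered over days, 7% at 5 dai and 0% for strain by age. Of 4-fold changes 71%, 65% and 12% were recovered, so few or no calls do not show that changes were absent. Unchanged gene models were called 10, 5 and 1 times. The tests at 7 and 10 dai and of the interaction were not simulated. Alternatives included limma 3.58.1 and DESeq2 1.42.0. Figures used matplotlib 3.10.9.

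Lists and the comparison were chosen with earlier results of these data known. Named genes: over days, the 2 per direction with the largest smallest daily difference among calls. Per day, they were the 2 with the largest difference, at 10 CPM or more in 1 library and 10 counts or more in the other. For strain by age, they were the calls with the same sign in both genotypes.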

Additional observations from a re-analysis of the deposited data

Results flagged for a closer look

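The strain difference of 2 gene models changed between 5 and 10 dai by a test of that change over both genotypes. chr4.CM0680.140.r2.m had a contrast of 4.81 (SE 0.37, edgeR adjusted p = 0.00585), moving from lower to higher with TONO in 2 of 2 genotypes. LjSGA_059392.1 had a contrast of −2.42 (SE 0.2, edgeR adjusted p = 0.00585), with nearly equal levels at 7 dai and lower values with TONO at 10 dai in 2 of 2 genotypes. What lies behind either change was not tested.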

How the results depend on the processing

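Of 561 comparisons of a result with an alternative setting 293 gave the same call or a value within its limits, and 0 turned the direction of a call. Many of the 561 are counts of gene models, for which no turn of direction could be scored. List medians with plain totals were not among the 561. For the strain effect over days in wild type (85 calls), 50 passed with a 2-fold minimum, 0 in the 6 wild type libraries alone, 0 without the day term (no replicate block), 1359 with DESeq2 and 0 to 544 when 1 day or 1 library was left out. The cause was not tested. The labels give no replicate numbers, so pairing was by day alone. For the strain effect per day, 5 dai (8 calls) gave 2 with a mean count of at least 50, 13 without the genotype term (no replicate block), 385 with DESeq2 and 52 with limma. 7 dai (0 calls) gave 74 with DESeq2, and 10 dai (2 calls) gave 6 without the genotype term, 447 with DESeq2 and 4 with limma. Strain by age (2 calls) gave 5 without the genotype term and 464 with DESeq2. Leaving out 1 library gave 0 to 432, 0 to 15 and 0 to 2341 calls per day and 0 to 1869 for strain by age, where a lone library is assumed to vary like the others.

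At 4-fold in place of 2-fold, 109, 120 and 210 gene models were higher and 294, 231 and 463 lower with TONO at 5, 7 and 10 dai, 1 higher and 0 lower on all 3 days. With a mean count of at least 50 they were 650, 532 and 1064 higher and 1139, 666 and 1233 lower, 24 lower on all days. A prior count of 8 also gave 24. With totals only, 970 were higher and 3656 lower at 10 dai, 54 and 110 on all days. Thinning all libraries to the smallest total, which leaves their composition as it was, left every daily count within 1.5 times.

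With lists made at 2-fold several medians were nearer 0. Late rising genes gave −0.06 and −0.1 at 5 and 7 dai, late falling genes −0.02, 0.06 and −0.18 at 5, 7 and 10 dai, and nodule raised genes −0.35 and 0.08 at 5 and 10 dai. Nodule lowered genes gave 0.12 and 0.15 at 5 and 10 dai and early transient genes 0.08 and −0.23 at 7 and 10 dai. With a mean count of at least 50 nodule lowered genes gave 0.22 at 7 dai. Lists from apn1 with TONO gave −0.47, −0.28 and 0.23 for late rising, 0.24 and 0.23 at 5 and 7 dai for late falling, and −0.53 and 0.09 at 5 and 10 dai for nodule raised genes. Early transient genes from apn1 with TONO had 0.21 in place of −0.05 at 5 dai and 0.41 in place of 0.26 at 7 dai, and nodule lowered genes 0.02 in place of 0.14 at 7 dai. The signs of late falling and early transient genes at 5 dai, near 0, thus depended on the list. With totals only, an alternative chosen after seeing the data, medians relative to all gene models stayed within their limits. A common scaling factor all but cancels in such relative values, so this could hardly come out otherwise. Not taken relative to all gene models, the 10 dai medians with totals were −0.05 for nodule raised, −0.08 for late rising and −0.01 for nodule lowered genes.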

Other observations

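The number of gene models with at least 1 count was lower with TONO in wild type. After all libraries had been thinned to 33981124 counts, a step chosen after seeing the data, wild type nodules with MAFF303099 had 35739, 35607 and 35418 detected gene models at 5, 7 and 10 dai. With TONO they had 35205, 35007 and 34624, so the ranges of the strains did not overlap. Of the 10160 gene models under 1 CPM in both roots, 7451, 7337 and 7186 were detected with MAFF303099 and 6938, 6775 and 6458 with TONO. Detection can differ only where counts are very few. The large part of these gene models in the difference was thus all but given beforehand and is no separate result. In apn1 the ranges overlapped, with 35861, 35538 and 34993 detected with MAFF303099 and 35735, 35651 and 35415 with TONO. Among gene models with a mean count of 10 to under 50, 15.4%, 18.6% and 22.2% were at least 2-fold lower with TONO in wild type at 5, 7 and 10 dai, and 10.9%, 10.1% and 13.3% higher. What lies behind this was not tested.

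The share of counts held by the 100 most abundant gene models was higher with TONO than with MAFF303099 on each day in wild type. It was 16.4%, 19.4% and 22.6% with MAFF303099 and 19.2%, 20.4% and 25.7% with TONO at 5, 7 and 10 dai. The apn1 libraries had 17.7%, 20.3% and 21.8% with MAFF303099 and 17.2%, 18.2% and 18.2% with TONO, in the opposite order on each day.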
